A study of Homo sapiens with 6 samples.

Results

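The IL-6 family genes described here are 10 genes that encode 4 ligands (*IL6*, *IL11*, *LIF*, *CLCF1*), 4 receptor chains (*IL6R*, *IL6ST*, *LIFR*, *OSMR*), the transcription factor *STAT3* and its feedback inhibitor *SOCS3*. They were chosen by name from the 61228 genes of the deposited tables, with the fold changes of this same comparison already known, so their differences are given as a description and without p-values. All 10 passed the filter on low counts, which left 15373 genes.

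HBECs, an immortalized line of human bronchial epithelial cells labelled as wild type, were exposed to cockroach extract (CRE), an airway allergen, in all 6 libraries. In 3 of them the cells also received VAF347, a small-molecule agonist of the aryl hydrocarbon receptor (AhR). VAF347 was given at 20 μM, as a pre-treatment before CRE by the study's cell culture methods. RNA was taken after 24 h, and poly(A) RNA was sequenced to 8873160 to 10750283 counts per library. Cells without CRE were not analysed here. The comparison gives the difference with VAF347 in CRE-treated cells and not what the allergen itself changed. All 6 libraries are of 1 cell line, and the labels do not say whether the 3 libraries of a group came from separate cultures. The measured differences are then differences between these libraries, and in bulk RNA fewer cells of a kind and less RNA per cell cannot be told apart.

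Cytokines of the IL-6 family signal through receptor complexes built around gp130, the shared chain encoded by *IL6ST*. IL-6 and IL-11 bring gp130 together through their own binding chains, whereas LIF and CLCF1 join it to the LIF receptor and oncostatin M joins it to OSMR or the LIF receptor. The bound kinases of the JAK family phosphorylate STAT3, which enters the nucleus and switches on genes that include *SOCS3*, whose product then blocks gp130 and the JAKs. In the airway epithelium IL-6 is a secreted mediator of inflammation and a familiar component of the secretome of senescent cells.

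The sequences before the start sites of *IL6*, *IL11* and *SOCS3* are shown because *IL6* is the called gene, *IL11* is another ligand and *SOCS3* is the feedback inhibitor of the pathway. Each is the 250 bases before a RefSeq start site on GRCh38.p14, written 5′ to 3′ on the strand of the gene. *IL6* lies at chr7:22726950-22727199 on the plus strand, *IL11* at chr19:55370464-55370713 on the minus strand and *SOCS3* at chr17:78360926-78361175 on the minus strand. Capitals mark matches, on either strand, to the AhR core GCGTG, a STAT motif TTCNNNGAA, an NF-kappaB motif GGANTTTCC, a C/EBP motif TTGCNNAA and an AP-1 motif TGANTCA.
IL6: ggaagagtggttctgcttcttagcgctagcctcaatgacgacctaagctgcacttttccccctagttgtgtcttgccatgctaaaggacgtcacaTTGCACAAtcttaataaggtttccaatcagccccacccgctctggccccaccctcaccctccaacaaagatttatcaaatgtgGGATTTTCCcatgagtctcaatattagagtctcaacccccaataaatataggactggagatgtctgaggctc
IL11: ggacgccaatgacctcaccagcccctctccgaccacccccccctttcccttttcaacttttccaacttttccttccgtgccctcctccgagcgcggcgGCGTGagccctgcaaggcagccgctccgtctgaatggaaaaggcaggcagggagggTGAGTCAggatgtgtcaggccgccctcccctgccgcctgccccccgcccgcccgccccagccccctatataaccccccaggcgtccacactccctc
SOCS3: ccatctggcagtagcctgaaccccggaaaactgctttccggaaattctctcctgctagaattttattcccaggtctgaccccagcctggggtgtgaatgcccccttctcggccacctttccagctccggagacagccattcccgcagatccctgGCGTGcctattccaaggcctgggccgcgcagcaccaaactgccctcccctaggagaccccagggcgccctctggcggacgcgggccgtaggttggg

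The *IL6* window held an NF-kappaB match, GGATTTTCC, at position -72 from the start site and a C/EBP match, TTGCACAA, at -155. It held 0 copies of the AhR core and 0 of the STAT motif, which says only that these letters are not in this window. The *IL11* window held an AhR core at -152 and an AP-1 match, TGAGTCA, at -96, and the *SOCS3* window shown held an AhR core at -96. This *SOCS3* window lies wholly upstream of the annotated gene (chr17:78356778-78360077, GENCODE v44). Another RefSeq window of *SOCS3*, at chr17:78359618-78359917 inside the annotated gene, is not shown and held an AhR core at -64. RefSeq windows of 300 bases, from 250 before to 50 past the start, were found for 8 of the 10 genes, 11 windows in all. The AhR core was in 6 of these 11 and in 36.5% of all 35116 promoter windows, and the STAT motif was in 2, both of *LIFR*, against 7.66% of all. The C/EBP motif was in 3 (10.5% of all), the AP-1 motif in 3 (7.71% of all) and the NF-kappaB motif in 1, that of *IL6* (1.64% of all). The short motifs are common, and a match is a description of the sequence, not a bound site.

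The levels of the 10 genes, compared in TPM, which corrects for transcript length, fell into 3 tiers in CRE-treated HBECs. The shared receptor chain *IL6ST* (77.3 ± 7.1 TPM, SD, n = 3), *STAT3* (67.6 ± 6.11) and the oncostatin M receptor chain *OSMR* (60.9 ± 8.66) formed the upper tier and overlapped their neighbours. *LIF* (21.5 ± 1.91), *SOCS3* (18 ± 3.18), *CLCF1* (16.5 ± 2.05) and *IL6* (16.3 ± 0.779) lay in the middle, where each overlapped the next in this order but *LIF* lay above *CLCF1* and *IL6*. *IL11* (4.41 ± 1.37), *LIFR* (3.2 ± 0.491) and *IL6R* (2.96 ± 0.461), the chain that binds IL-6 itself, were lowest and overlapped as well. With VAF347 the order changed in the middle tier. *IL6*, at 29.4 ± 2.95 TPM, moved from rank 7 to rank 4 of the 10 genes, where it overlapped *LIF* (24.7 ± 1.53) but not *CLCF1* (17 ± 0.607) or *OSMR* (52.7 ± 0.674). Among all genes tested its level went from percentile 47.4 to percentile 63.1.

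**Figure D1:**
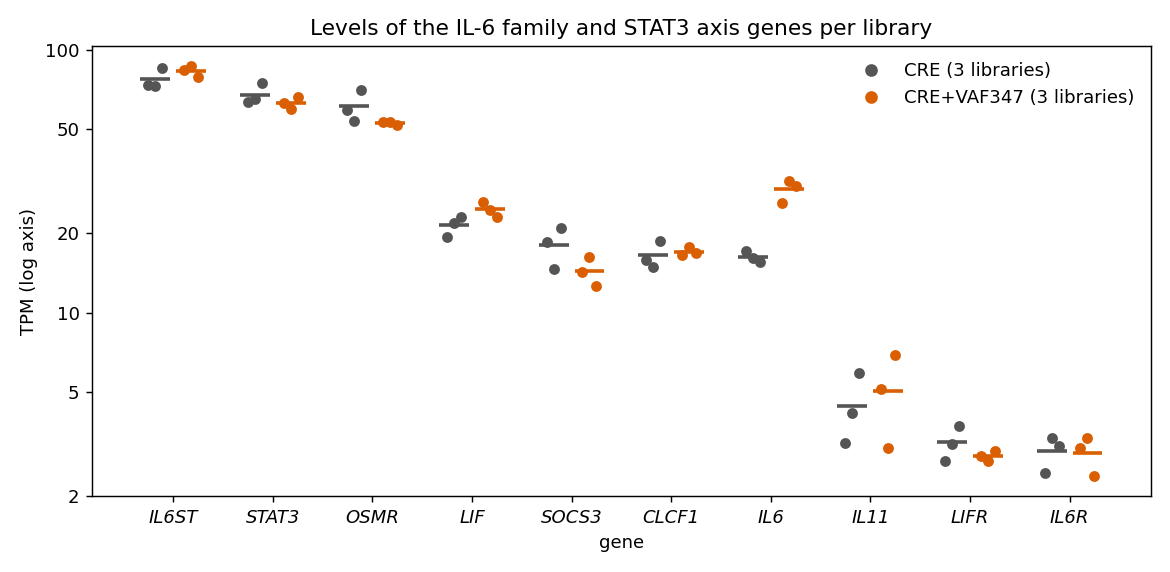
TPM on a log axis for the 10 genes, ordered by their mean in CRE; each point is a library (3 CRE, 3 CRE+VAF347) and each bar the group mean. *IL6* is the gene whose groups stand clearly apart, 15.6 to 17.1 TPM in CRE against 26.1 to 31.8 TPM with VAF347.

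Of the ligands, *IL6* differed most. It was counted 61, 61 and 47 times in the CRE libraries 1 to 3 and 88, 122 and 117 times in the CRE+VAF347 libraries 1 to 3. Scaled to depth with TMM factors, these were 6.32, 5.98 and 4.39 CPM (counts scaled per library size) in CRE and 9.89, 12.8 and 11.7 CPM with VAF347. All 3 VAF347 libraries were above all 3 CRE libraries in counts, CPM and TPM. The mean went from 5.56 ± 1.03 to 11.5 ± 1.48 CPM (SD, n = 3), a log2 fold change of 1.05 (SE 0.17) or 2.07-fold. In TPM the log2 ratio of the group means was smaller, 0.85, and the reason for the gap between the scales was not tested. Leaving out each library in turn gave log2 fold changes from 0.90, without CRE replicate 3, to 1.15, without CRE replicate 1. The study's authors report the opposite direction by RT-PCR in CRE-treated HBECs, where IL-6 was reduced by VAF347. The reason for this conflict was not tested.

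*IL6* occupies chromosome 7 from 22725884 to 22732002 on the plus strand (GRCh38, GENCODE v44), where it overlaps the opposite-strand genes *IL6-AS1* and *STEAP1B*. The RefSeq start site used for the sequence above lies inside this annotated gene. The use of strand in counting is not given in the sources used here. Reads from any sequence that *IL6* shares with its antisense partner may therefore be assigned to either gene. *IL6-AS1* was counted 7, 9 and 14 times in CRE and 12, 20 and 15 times with VAF347, and these counts overlap. In CPM the VAF347 libraries (1.35, 2.1 and 1.5) were all above the CRE libraries (0.725, 0.883 and 1.31). In TPM the groups overlapped. The log2 fold change of *IL6-AS1* was 0.75 (SE 0.34, adjusted p = 0.236, edgeR). With the counts of both genes summed, the log2 fold change was 1.01 (SE 0.15).

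The other 3 ligands differed less. *IL11*, a ligand tied to fibrosis and stromal responses, gave 4.35, 6.18 and 5.14 CPM in CRE and 7.64, 4.94 and 8.08 CPM with VAF347. The CRE+VAF347 replicate 2 library lay inside the CRE range, so the groups overlapped, and the log2 fold change of 0.40 had an SE of 0.21. It was 0.25 without CRE+VAF347 replicate 3, 0.58 without CRE+VAF347 replicate 2 and 0.13 with limma on log2(TPM + 1). These values rest on 42 to 81 counts per library. *LIF*, which keeps stem cells undifferentiated and acts on many epithelia, gave 52.0, 61.7 and 55.1 CPM in CRE and 69.8, 67.4 and 62.3 CPM with VAF347. All 3 VAF347 libraries of *LIF* were above the CRE libraries, the nearest pair by a small margin, and the log2 fold change was 0.24 (SE 0.08). *CLCF1*, a cytokine of the same fold that acts on neurons and B cells, was at 16.5 ± 1.26 CPM in CRE and 17.5 ± 0.776 CPM with VAF347, with overlapping groups and a log2 fold change of 0.09 (SE 0.10), which ranged from 0.03 to 0.13 over the fits that left out 1 library. *CLCF1* shares its strand with an overlapping gene, ENSG00000256514, which was listed at 33, 0 and 0 counts in CRE and 0, 63 and 46 counts with VAF347, so the division of reads between them is uncertain.

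Of the receptor genes, *LIFR* (38474668 to 38608354, minus strand) and *OSMR* (38845858 to 38945596, plus strand) lie near each other on chromosome 5 of GRCh38, with *IL6ST* farther along it (55935095 to 55995022, minus strand) and *IL6R* on chromosome 1 (154405193 to 154469450, plus strand). *LIFR*, *IL6R* and *OSMR* overlap genes on the opposite strand, *LIFR-AS1*, *IL6R-AS1* and *RICTOR*. The receptor chains differed from CRE by log2 fold changes of 0.18 or less in size. *IL6ST* gave 218, 214 and 214 CPM in CRE and 244, 248 and 229 CPM with VAF347. Its VAF347 libraries were all above the CRE libraries in CPM, by a log2 fold change of 0.16 (SE 0.06), but the groups overlapped in TPM (77.3 ± 7.1 against 83.1 ± 3.79). *OSMR*, the signalling chain for oncostatin M, moved the other way, from 145, 145 and 169 CPM in CRE to 137, 140 and 130 CPM with VAF347. All 3 VAF347 libraries of *OSMR* were below the CRE libraries in both units, and the log2 fold change was -0.18 (SE 0.07). CRE replicate 3 was the high library here, and without it the log2 fold change was -0.10.

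The chains that bind IL-6 and LIF were the lowest of the receptors in TPM. *IL6R* lay between 9.63 and 11.3 CPM in CRE (mean 10.3 ± 0.868, SD, n = 3) and between 8.48 and 10.9 CPM with VAF347 (mean 9.8 ± 1.24). *LIFR* gave 11.2, 11.0 and 10.3 CPM in CRE and 11.7, 10.7 and 9.18 CPM with VAF347. The groups overlapped for both, and the log2 fold changes of -0.07 and -0.04 were each smaller than their SE of 0.13. Both turned positive, to 0.02 and 0.04, without CRE+VAF347 replicate 3, so neither kept its direction. They rest on 85 to 115 counts per library.

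*STAT3*, the transcription factor on which these receptors converge, gave 193, 198 and 204 CPM in CRE and 189, 184 and 195 CPM with VAF347. The groups overlapped, and the log2 fold change was -0.07 (SE 0.06). The data measure *STAT3* mRNA and not the phosphorylated protein. *SOCS3*, the feedback inhibitor that STAT3 induces, gave 32.3, 31.8 and 36.1 CPM in CRE and 29.7, 26.3 and 27.4 CPM with VAF347. The VAF347 libraries were all lower in CPM, from a mean of 33.4 ± 2.34 to 27.8 ± 1.72, and the log2 fold change was -0.27 (SE 0.09). In TPM the *SOCS3* groups overlapped, with 18.5, 14.6 and 20.9 TPM in CRE and 14.3, 16.3 and 12.6 TPM with VAF347.

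**Figure D2:**
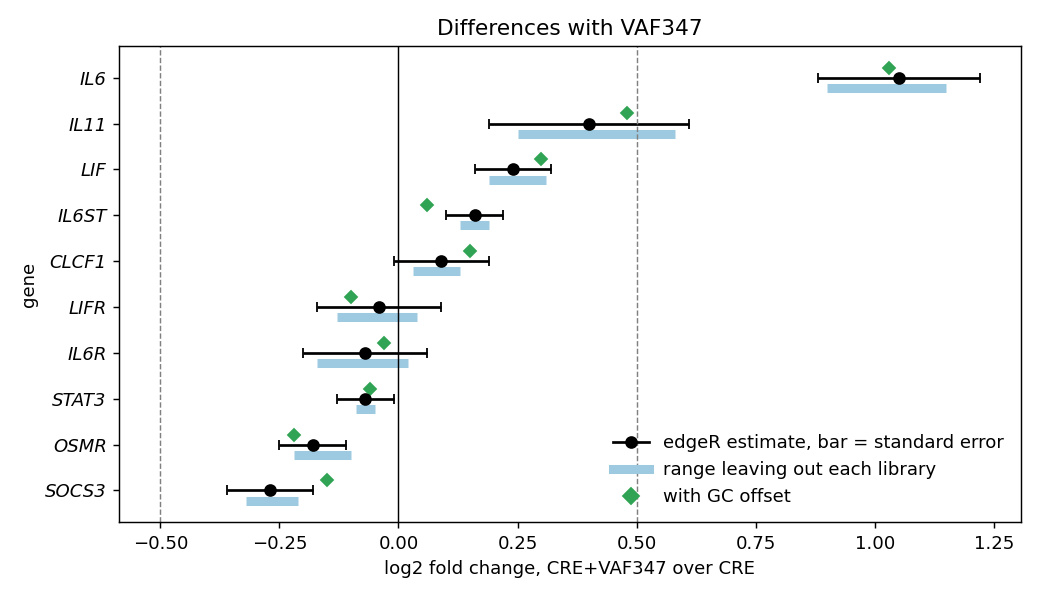
Log2 fold change of CRE+VAF347 over CRE for the 10 genes: points are edgeR estimates with their standard error, bars span the values obtained by leaving out each of the 6 libraries, diamonds include an offset for GC content, and dashed lines mark 0.5 on the log2 scale. *IL6* (1.05) lies past the line throughout; the other 9 estimates lie between -0.27 and 0.40.

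Across the 10 genes 5 log2 fold changes were above 0 and 5 below, with a median of 0.02, beside a median of 0.01 over all genes tested. A gene was called changed at an adjusted p under 0.05 (edgeR quasi-likelihood test, Benjamini-Hochberg over all 15373 genes) and a log2 fold change past 0.5 in size. By this rule 1 of the 10 genes, *IL6*, was higher and 0 were lower, beside 0.501% and 1.71% of all genes. At an unadjusted p under 0.05, 3 were higher and 2 lower, beside 8.87% and 11.9% of all genes. DESeq2 called 1 higher and 0 lower, beside 0.443% and 1.43% of the genes it tested, and limma on log2(TPM + 1) also called 1 and 0, beside 0.213% and 0.313%. In CPM the groups did not overlap for 3 genes that were higher and 2 that were lower, against 12.5% and 14.8% of all genes. Since the genes were picked with these differences known, nothing is read from the counts.

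Of the smaller differences, those of *IL6ST* and *SOCS3* shrank when GC content was taken into account, and those of *IL11*, *LIF* and *OSMR* grew. Across 15202 genes the log2 fold change fell with transcript GC content (Spearman rho -0.28 across genes, which are not independent replicates), from a median of 0.10 in the lowest of 10 GC bins to -0.09 in the highest. *IL6ST*, at 37.6% GC, went from 0.16 to 0.06 when an offset for GC content was fitted in each library, and *SOCS3*, at 68.1% GC, went from -0.27 to -0.15. *IL6*, at 46.4% GC, was at 1.03 with the offset. *IL11* (62.6% GC) was at 0.48, *LIF* at 0.30 and *OSMR* (43.2% GC) at -0.22 with it.

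Around the 10 genes, 78 others of the pathway were listed by role, and 66 of them were tested. These lists too were written with earlier results of these data known. Their counts and adjusted p-values are a description, and nothing is read from the shares. Of these, 0 were called higher and 3 lower (4.55%, beside 1.71% of all genes). At an adjusted p under 0.05 with any fold change, 1 was higher and 8 were lower, beside 1.35% and 4.07% of all genes. At an unadjusted p under 0.05 there were 8 higher and 15 lower of the 66, beside 8.87% and 11.9% of all genes, and DESeq2 and limma on TPM each called 0 higher and 2 lower.

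The upstream parts of the pathway held no called gene, beside 0.501% of all genes called higher and 1.71% called lower. With so few genes tested in these lists, no call is close to those shares. Of 7 other ligands and partners, 3 were tested, among them cardiotrophin *CTF1* (log2 fold change -0.26) and *CNTF* (0.45). Oncostatin M (*OSM*), *IL27* and *IL31* were at 0 counts in all 6 libraries, so the cells held a clear *OSMR* signal without detected *OSM* mRNA. Of 6 other receptors and receptor-shedding proteases, 4 were tested (median -0.08): *IL11RA* at 0.00, *IL27RA* at -0.15, and the proteases *ADAM10* at -0.15 and *ADAM17* at -0.01. At an unadjusted p under 0.05 the ligands had 0 in either direction and the receptors 0 higher and 1 lower. Of all genes 8.87% were higher and 11.9% lower at this cut. DESeq2 and limma called 0 in both lists.

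The signalling enzymes and brakes held no called gene either, which is again close to the shares of all genes (0.501% higher, 1.71% lower). All 10 JAK kinases and other STATs were tested and 0 were called (median -0.10), with *JAK1* at -0.01, *JAK2* at 0.38 (adjusted p = 0.0937) and *STAT2* at -0.22 (adjusted p = 0.101). At an unadjusted p under 0.05, 1 of them was higher and 2 were lower, beside 8.87% and 11.9% of all genes. All 16 other negative regulators were tested and 0 were called (median 0.02), among them the phosphatases *PTPN11* (0.08) and *PTPN1* (-0.02) and the SOCS genes *SOCS1* (-0.10) and *SOCS4* (0.23, adjusted p = 0.0697). Here 2 were higher and 0 lower at an unadjusted p under 0.05, beside the same shares of all genes. DESeq2 and limma called 0 in both lists.

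The called genes were all among 25 STAT3 target and acute phase genes, of which 19 were tested, with a median log2 fold change of -0.15. Of the 19, 0 were called higher and 3 lower, beside 0.501% and 1.71% of all genes. *LCN2*, which encodes the iron-sequestering protein lipocalin-2, gave 146, 175 and 130 CPM in CRE and 81.7, 81.1 and 64.1 CPM with VAF347. The groups lay far apart, and *LCN2* fell by 0.99 on the log2 scale (SE 0.12, adjusted p = 0.000695). Its call was lost with limma on log2(TPM + 1) without a filter (adjusted p = 0.0956). *MYC*, a proto-oncogene, fell by 0.94 (SE 0.10, adjusted p = 0.000432). *SERPINA3*, an acute phase inhibitor of serine proteases, was counted 27, 36 and 25 times in CRE and 14, 6 and 6 times with VAF347 and fell by 1.64 (SE 0.36, adjusted p = 0.0257). The *SERPINA3* call rests on few counts. It was lost when CRE replicate 1 (adjusted p = 0.0572), CRE replicate 2 (0.0952), CRE+VAF347 replicate 2 (0.123) or CRE+VAF347 replicate 3 (0.132) was left out, and with limma on TPM (0.146 to 0.33), and DESeq2 gave it no adjusted p.

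Other STAT3 targets passed the adjusted p without reaching the fold threshold. *CCND1*, which encodes the cell cycle protein cyclin D1, was higher by a log2 fold change of 0.32 (adjusted p = 0.0164). The acute phase gene *SAA2* was lower, at -0.47 (adjusted p = 0.0495), but *SAA1* and *SAA2* are nearly identical, so the division of their reads is uncertain, and *SAA1* was at -0.31 (adjusted p = 0.377). Without CRE replicate 3 *SAA2* was called lower, at -0.55 (adjusted p = 0.00744), and with any other library left out its adjusted p was 0.0641 to 0.197. The adjusted p of *CCND1* was 0.066, 0.0938 and 0.0964 without CRE replicate 2, CRE+VAF347 replicate 2 and CRE+VAF347 replicate 3. The survival genes *MCL1* (0.08) and *BCL2L1* (-0.04) were not called, and the liver genes *FGA*, *HP* and *CRP* were at 0 counts in all 6 libraries. *IL6* and the STAT3 targets *LCN2* and *MYC* had opposite signs in the same libraries, with *SOCS3* lower but under the threshold. *CCND1* had the same sign as *IL6*, and of the 19 tested genes of this list 7 were above 0 and 12 below. How *IL6* relates to these genes was not tested.

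**Figure D3:**
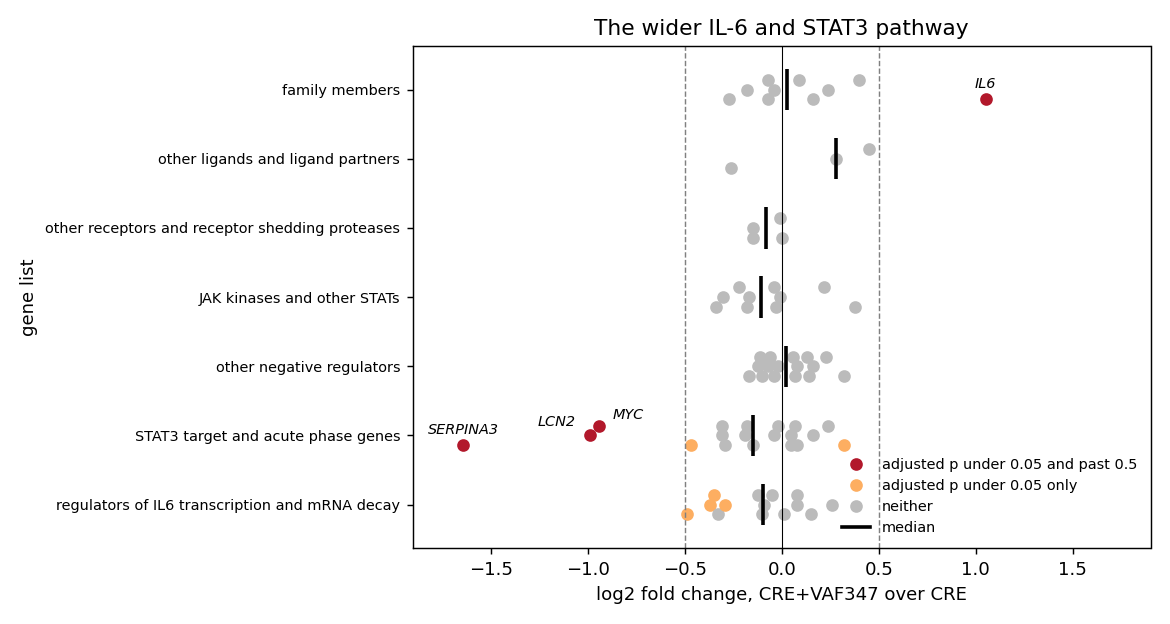
Log2 fold change of each tested gene by list; colours give the call, black bars the list median and dashed lines 0.5 on the log2 scale. *IL6* (1.05) is the one called gene above 0, and *SERPINA3* (-1.64), *LCN2* (-0.99) and *MYC* (-0.94) are the called genes below 0.

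The regulators of *IL6* transcription and mRNA decay were 14 genes, all tested, with a median log2 fold change of -0.10. Of these 0 were called, beside 0.501% of all genes called higher and 1.71% called lower. At an adjusted p under 0.05 with any fold change, 0 were higher and 4 lower, beside 1.35% and 4.07% of all genes. The 4 were under the fold threshold. *NFKBIA*, the inhibitor that holds NF-kappaB in the cytoplasm, was at 137, 133 and 134 CPM in CRE and 111, 111 and 109 CPM with VAF347 (log2 fold change -0.29, SE 0.05, adjusted p = 0.0111). *NFKBIZ*, a nuclear cofactor needed for *IL6* induction, was at -0.37 (SE 0.08, adjusted p = 0.0261). The RNase gene *ZC3H12A*, whose product degrades *IL6* mRNA, was at -0.35 (SE 0.07, adjusted p = 0.0138). All 3 VAF347 libraries of these genes were below the CRE libraries, but the adjusted p rose above 0.05 when any one VAF347 library was left out, to 0.0543 to 0.064 for *NFKBIA*, 0.0629 to 0.109 for *NFKBIZ* and 0.0521 to 0.0754 for *ZC3H12A*. That of *NFKBIZ* was also 0.0591 without CRE replicate 1 and 0.139 with DESeq2, and that of *ZC3H12A* was 0.0528 with the GC offset. With limma on log2(TPM + 1) the adjusted p was 0.211 for *NFKBIA*, 0.465 for *NFKBIZ* and 0.412 for *ZC3H12A*.

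*ZFP36L2*, which encodes a protein that binds AU-rich elements and shortens mRNA life, came closest to the fold threshold, with 82.8, 83.9 and 97.0 CPM in CRE and 64.6, 64.4 and 58.9 CPM with VAF347. The groups did not overlap, and the log2 fold change was -0.49 (SE 0.08, adjusted p = 0.00465). It was called at -0.53 without CRE replicate 1 and at -0.52 without CRE replicate 2, CRE+VAF347 replicate 1 or CRE+VAF347 replicate 2. It was not called at -0.41 without CRE replicate 3, at -0.45 without CRE+VAF347 replicate 3, or with limma on TPM (adjusted p = 0.221 to 0.44). The NF-kappaB subunits *NFKB1* (0.08) and *RELA* (-0.10) and the C/EBP genes *CEBPB* (-0.18, adjusted p = 0.106) and *CEBPD* (-0.29, adjusted p = 0.0596) were not called. At an unadjusted p under 0.05, 2 of the 14 were higher and 5 lower (8.87% and 11.9% of all genes), and DESeq2 and limma called 0. *IL6* was higher in libraries in which an inducer of its transcription, *NFKBIZ*, was lower. *ZC3H12A*, a gene for degrading *IL6* mRNA, was lower there too. Neither was called, and a link to *IL6* was not tested.

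**Figure D4:**
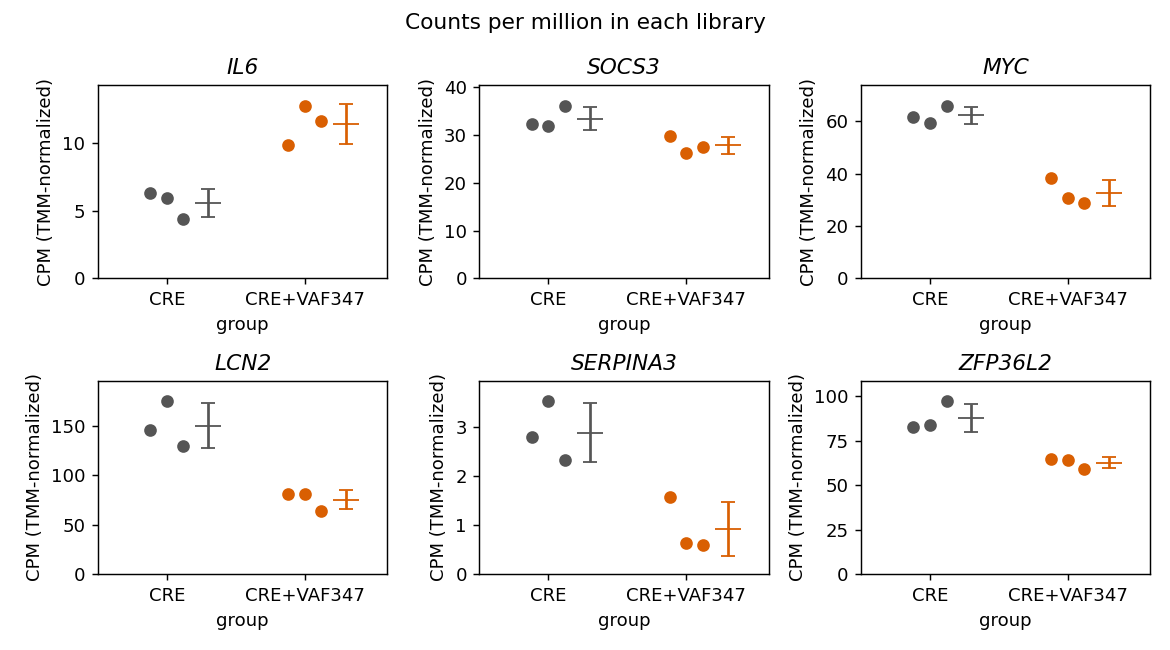
CPM in each library for *IL6*, *SOCS3*, *LCN2*, *MYC*, *SERPINA3* and *ZFP36L2*; points are libraries, and the bars beside them give the mean and SD of 3. The groups separate for all 6, with *IL6* higher with VAF347 and the other 5 lower.

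By the pattern over the 6 libraries (root mean square difference of centred log2 CPM), the genes nearest to *IL6* were *LINC00324* (0.112), *SLC2A11* (0.140) and *LCN12* (0.153). Of these *SLC2A11*, a sugar transporter gene, passed the test, from 51.6 to 104 CPM (log2 fold change 1.01, SE 0.08, adjusted p = 6.48e-05). *LINC00324* and *LCN12*, each under 2 CPM, did not (adjusted p = 0.127 and 0.164). The nearest genes were picked by their pattern in these same libraries. Their direction and rough size were thus fixed in advance, and nothing is read from these tests.

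All 4 AhR targets checked (*CYP1A1*, *CYP1B1*, *AHRR*, *TIPARP*) were called higher in the libraries labelled with VAF347, beside 0.501% of all genes. Their log2 fold changes were 2.16 to 6.20. They were chosen with earlier results of these data known, so they serve only as a check of the labels. CRE replicate 3 stood farthest from the other libraries, with a root mean square log2 difference of 0.403 and 0.427 to its own group and 0.473 to 0.486 to the VAF347 libraries. Epithelial markers summed to 3460 to 4310 TPM in CRE and 3470 to 3550 TPM with VAF347, and of the basal cell markers *KRT5* had 108 to 169 counts and *KRT17* 1133 to 1622, while *KRT14* and *TP63* had at most 2. Of 7 epithelial markers tested, 2 were above 0 and 5 below. At an adjusted p under 0.05 with any fold change, 0 were higher and 2 lower, beside 1.35% and 4.07% of all genes. These were *KRT17* (-0.27, adjusted p = 0.024) and *KRT19* (-0.38, adjusted p = 0.0265). Immune markers summed to 25.9 to 29.3 TPM against 17.3 to 23.3 TPM, most of it *CD68*, with *MS4A1* and *FCER1A* at 0. Fibroblast markers summed to 20 to 22 TPM against 17.1 to 19.4 TPM, with *DCN*, *LUM* and *PDGFRA* at 0. Most of it was *COL1A1*, which was not called (log2 fold change -0.10) and overlapped between the groups in CPM. Endothelial markers summed to 7.55 to 8.31 TPM against 4.31 to 5.06 TPM, most of it *CDH5*. Of these 4 genes 2 were tested and 2 called lower, beside 1.71% of all genes. They were *CDH5* (-0.84, adjusted p = 0.00119) and *VWF* (-1.45, adjusted p = 0.0107). *PECAM1* had at most 3 counts. The immune, fibroblast and endothelial sums did not overlap and were lower where *IL6* was higher. Each sum follows mainly *CD68*, *COL1A1* or *CDH5* and does not measure a cell type. Their part in the results was not tested.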

How the data were processed

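The expected counts per gene were deposited by the authors, who estimated them with Salmon (hg38, both per the submitters' processing notes; the Salmon version and the strand setting are not given in the sources used here). TPM values from the same estimates were deposited too. The deposited table of the authors' own comparison (fold changes, p-values, mean counts) was not used. All 61228 gene names were found in GENCODE v44. Expected counts were rounded (14.5% of values were not whole), filtered with filterByExpr, scaled with TMM and tested with edgeR 4.0.16 in R 4.3.3 (quasi-likelihood test, Benjamini-Hochberg over 15373 genes, adjusted p under 0.05 and log2 fold change past 0.5). The SE is the log2 fold change divided by the square root of F. Libraries hold 8873160 to 10750283 counts. An exact permutation test of 3 against 3 cannot go below p = 0.1. The code was tested on simulated data.

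The 10 genes and all lists were chosen with earlier results of these data known. The genes named are the 10, the listed genes that passed a threshold, examples of each list by role or abundance, and the 3 genes nearest to *IL6* by pattern. Some genes that meet this rule are left out. Alternatives were DESeq2 1.42.0 (its size factors and its Wald test), no filter, at least 10 counts in all libraries, replicate numbers fitted as blocks, limma 3.58.1 on log2(TPM + 1) and log2(TPM + 0.1), no fold threshold, and leaving out each library. A GC offset per library and summed *IL6* and *IL6-AS1* counts were added after the data were seen. Promoter sequences are from RefSeq (GRCh38.p14), and motifs were searched on both strands.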

Additional observations from a re-analysis of the deposited data

How the results depend on the processing

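*IL6* was called higher in all but 1 of the alternatives run on it, with log2 fold changes of 0.81 to 1.15. The exception was limma on log2(TPM + 1) without a filter, which gave 0.81 and called 0 of the 10 genes, 20 genes higher and 12 lower in all, and 1 other pathway gene lower. From group means the log2 ratio of *IL6* was 0.85 in TPM and 1.04 in CPM. *IL6R* (0.02) and *LIFR* (0.04) turned positive without CRE+VAF347 replicate 3, and over all leave-one-out fits ranged from -0.17 to 0.02 and from -0.13 to 0.04. Against 77 genes higher and 263 lower, no filter on low counts gave 187 and 411, any fold change 207 and 626, limma on log2(TPM + 1) 34 and 50 and limma on log2(TPM + 0.1) 32 and 52. Any fold change gave 1 other pathway gene higher and 8 lower. Leaving out each library gave 58 to 110 genes higher and 143 to 270 lower, the 143 without CRE+VAF347 replicate 3, and 2 to 5 other pathway genes lower, the 5 without CRE replicate 3, with 1 of the 10 genes called each time. The causes were not tested.

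With the replicate number as a block, *IL6* was at 1.05, 1 of the 10 genes was called higher and 78 genes were higher and 241 lower. Deviations of same-numbered libraries correlated at 0.04, 0.04 and 0.03 and those of other pairs at -0.04 to 0. Each library correlated best with its own number, a hint from the data and not the design, so the numbers were not taken as pairs. Depth limits the genes with few counts, such as *IL6* (47 to 122 per library), *IL11* (42 to 81) and *SERPINA3* (6 to 36).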
